A study of Mus musculus with 24 samples.

Results

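The TRAJ segments of the mouse TCRα locus were followed along their order on the chromosome, apart from TRAJ18, TRAJ30, TRAJ33 and TRAJ53, which were set aside. A sequence was kept where its J call was one of the remaining TRAJ segments, where it carried no stop mark, and where it had at least 2 counts. This gave 41 of the 45 TRAJ segments seen in such sequences, 45402 of 55647 sequences and 39596 of 47725 clonotypes, a clonotype being a CDR3 amino acid sequence with its V and J gene in 1 tumor. The 41 segments, called the members here, held 73.8% of the productive TCRα counts.

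The libraries came from RNA of whole CT26 tumors, a mouse colon cancer cell line (CT26.CL25 by the genotype label), grown under the skin of both flanks of 12 female BALB/c mice. There were 2 tumors and 2 TCRα libraries per mouse, and 4 groups of 3 mice. In the time-matched group both tumors were harvested together on day 13. In the untreated time-separated group 1 tumor was removed by surgery and the other was harvested 11 days later. The remaining 2 groups were time-separated too and received decitabine (DAC), an inhibitor of DNA methylation, at 0.5 mg/kg or at 2 mg/kg for 5 days, from 3 days after surgery until 4 days before the second harvest. Tumors carry the numbers 1 and 2 in the labels with no word on which came out first, so early and late tumors were not set against each other. The tumor removed by surgery in each DAC mouse came out before dosing began. Values labelled by dose thus mix tumors taken before and after DAC. The libraries hold receptor transcripts alone, so the labelled tissue could not be checked against its markers, and fewer T cells with a segment and less receptor RNA per cell cannot be told apart.

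A TCRα chain is assembled in the thymus by joining 1 TRAV segment to 1 TRAJ segment. The TRAJ segments lie in a row between the TRAV segments and the constant region, and they are numbered downwards along it, so a high number lies near the V segments and a low number near the constant region. The same allele can recombine again, and each new joining takes a TRAV segment from further upstream and a TRAJ segment from further downstream. A joining that is out of frame or holds a stop codon makes no receptor and is not selected on one, so such sequences can serve as a reference for usage before selection, as far as they are true joinings. In the RefSeq annotation of mouse (GRCm38.p6) the 60 listed TRAJ genes followed the order of their numbers with 0 exceptions, and all 41 members were among them. The members were split into a V-proximal zone (TRAJ41 and above), a middle zone (TRAJ21 to TRAJ40) and a C-proximal zone (TRAJ20 and below).

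The segments on which the results below turn are shown first by their 3′ parts, read from the deposited sequences: the commonest end of the CDR3 followed by the commonest stretch up to the end of the J segment. Capitals mark the triplet that closes the CDR3 when 31 bases are left behind it, as in 41 of the 43 segments with at least 100 sequences. TRAJ49 and TRAJ40 were the most used members, TRAJ44 closes on another triplet, and TRAJ7 closes on the same triplet as TRAJ44 but was called 1 base short of it.
TRAJ49: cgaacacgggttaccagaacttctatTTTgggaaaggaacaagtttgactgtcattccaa
TRAJ40: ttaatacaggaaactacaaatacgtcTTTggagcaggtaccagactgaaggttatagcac
TRAJ44: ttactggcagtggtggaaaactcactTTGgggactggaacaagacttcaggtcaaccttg
TRAJ7: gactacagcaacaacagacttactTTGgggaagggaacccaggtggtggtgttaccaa
The CDR3 end of TRAJ23 is shown because it holds a stop codon, marked by capitals, in the reading frame of the J segment.
TRAJ23: gaattataacTAGgggaagcttatcttt

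Retained member counts per tumor ran from 20324 to 536540 with a median of 136824, and member clonotypes from 401 to 2561. Of the member sequences, 48.2% were near-copies, here a sequence within 1 edit of another with the same tumor, V gene and J gene and at least 10 times its count, and these held 4.76% of member counts. Of the 32460 stop-marked sequences with at least 2 counts, 22801 (70.2%) held an undetermined base (N) in the CDR3, against 0 of the productive ones, and 87.3% of those lay within 1 edit of a larger productive sequence of the same tumor, V and J. Values are therefore given with and without near-copies, and with and without N-bearing sequences, where that moves them.

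Usage was uneven along the locus. TRAJ49, in the V-proximal zone, was the most used member, with 7.26% ± 2.31 of member clonotypes (mean ± SD over 12 mice, each the mean of its tumors). TRAJ40, at the V-side edge of the middle zone, followed with 7.04% ± 2.36. TRAJ15 held 5.25% ± 5.45, TRAJ26 5.01% ± 3.53 and TRAJ13 4.23% ± 3.15, so that the SD between mice came close to or passed the mean for TRAJ15. These 5 segments held 28.8% of member clonotypes together. The 5 least used members were TRAJ25 (0.00215% ± 0.00745), TRAJ61 (0.00764% ± 0.0178), TRAJ7 (0.0875% ± 0.0737), TRAJ23 (0.107% ± 0.121) and TRAJ2 (0.28% ± 0.155), at 0.485% together. TRAJ61 is a pseudogene in RefSeq and came from 3 sequences, and TRAJ25 from a single one. In all, 31 of the 41 members were found in every one of the 24 tumors. Of the 15 RefSeq segments without a productive sequence of 2 counts, 8 are annotated as pseudogenes.

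The order changed below the leading pair once near-copies were left out. TRAJ49 (6.39% ± 1.10) and TRAJ40 (6.26% ± 0.867) kept the leading places, and TRAJ26 (4.72% ± 1.01) came next. TRAJ13 moved from rank 5 to rank 18 at 2.67% ± 0.858, and TRAJ15 from rank 3 to rank 7 at 3.79% ± 1.99. The median coefficient of variation between mice, over the members with a mean share above 0.2%, was 0.554 for clonotypes and 0.257 with near-copies left out (37 members each), and 1.11 for counts (36 members). TRAJ15 in mouse 12 is given as an example, chosen after its values were seen. In tumor 1, TRAJ15 went from 392 of 2193 clonotypes (17.9%) to 103 of 1352 (7.62%) without near-copies, and in tumor 2 from 527 of 2537 (20.8%) to 146 of 1514 (9.64%).

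**Figure D1:**
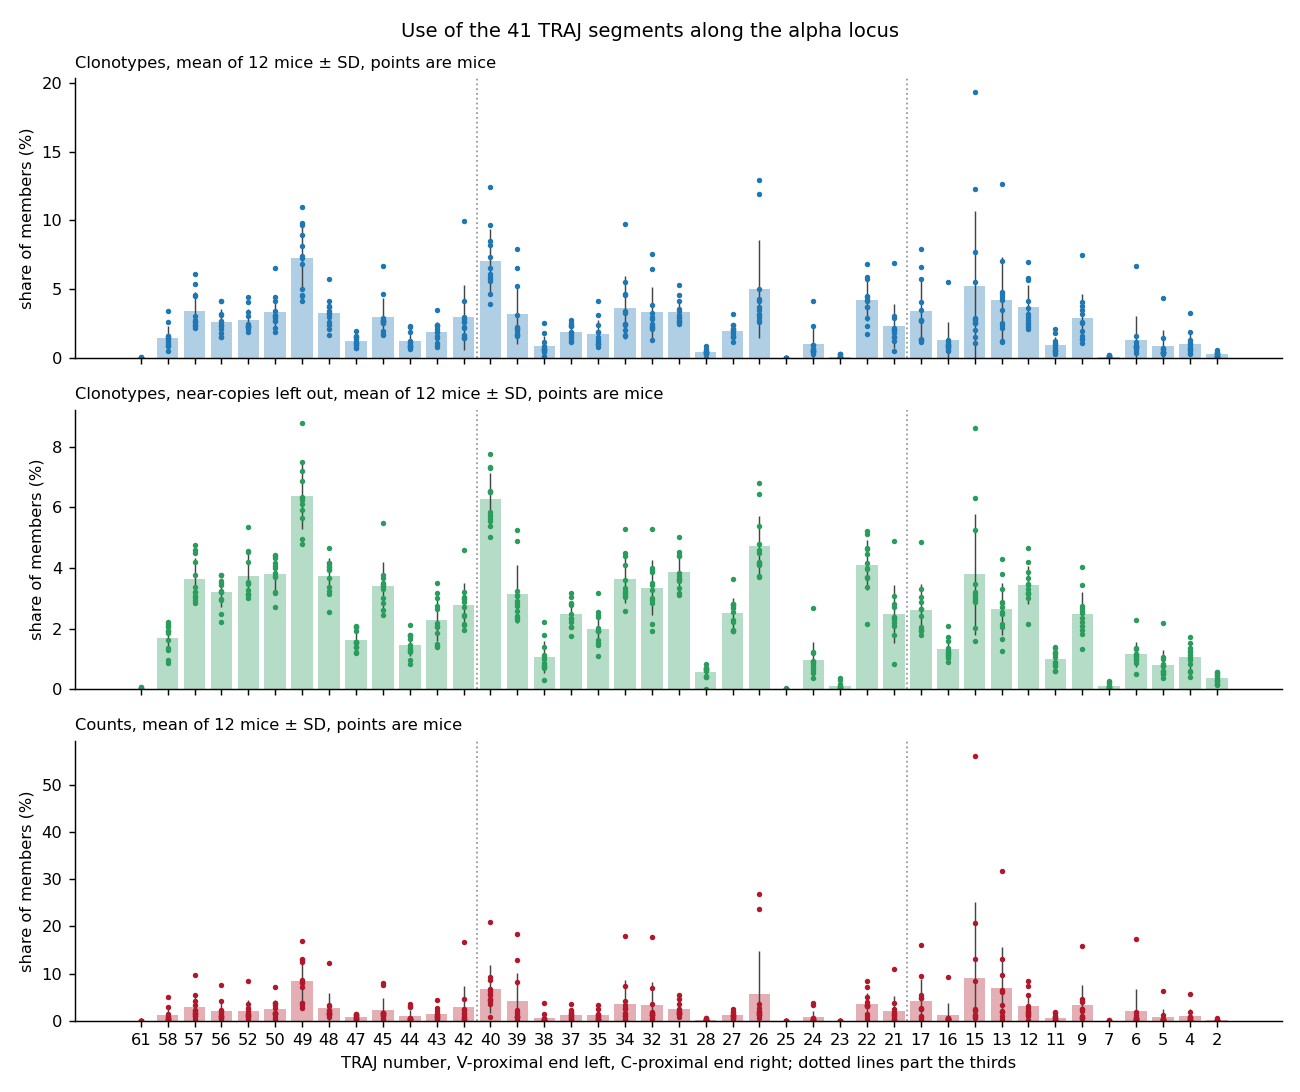
Share of each of the 41 members among member clonotypes (top), member clonotypes without near-copies (middle) and member counts (bottom), in percent, with segments ordered from the V-proximal end at left to the C-proximal end at right. Bars are means of 12 mice, error bars 1 SD and points single mice; dotted lines part the zones, TRAJ49 and TRAJ40 have the highest bars of the upper panels, and the highest point of the bottom panel is TRAJ15 in mouse 12 at 56.1% of counts.

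The members at the ends of the locus differed in usage. Nearest the V segments stood TRAJ61, TRAJ58 (1.48% ± 0.807 of member clonotypes), TRAJ57 (3.41% ± 1.35), TRAJ56 (2.64% ± 0.896) and TRAJ52 (2.73% ± 0.81). Nearest the constant region stood TRAJ7, TRAJ6 (1.35% ± 1.70), TRAJ5 (0.887% ± 1.13), TRAJ4 (1.05% ± 0.83) and TRAJ2. The V-proximal zone held 34.4% ± 5.27 of member clonotypes, the middle zone 40.2% ± 7.35 and the C-proximal zone 25.4% ± 8.0. Without near-copies these became 37.8% ± 2.47, 41.3% ± 2.50 and 20.8% ± 3.06.

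The CDR3 length also followed the segment. Mean length per member, over clonotypes counted once per mouse, was 12.0 ± 0.382 residues for TRAJ31 and 12.1 ± 0.246 for TRAJ43, the shortest ends among members found in every mouse, and 15.0 ± 0.317 for TRAJ32 and 15.6 ± 0.645 for TRAJ2, the longest (these 4 were chosen after their values were seen). Between zones the means were 13.9 ± 0.171 residues in the V-proximal, 13.5 ± 0.119 in the middle and 13.4 ± 0.215 in the C-proximal zone.

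By counts, single clonotypes carried much of a segment's share. The largest member clonotype of each mouse used a middle segment in 6 mice, a C-proximal one in 5 and a V-proximal one in 1. Their CDR3 nucleotides are shown for 4 mice, 1 per group, since they carry the shares that follow, with the 3′ part that matches the commonest end of the J segment in capitals.
Mouse 12, TRAV7-4 with TRAJ15: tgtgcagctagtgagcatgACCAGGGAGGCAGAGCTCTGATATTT
Mouse 4, TRAV8-2 with TRAJ48: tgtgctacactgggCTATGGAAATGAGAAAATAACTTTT
Mouse 11, TRAV7-2 with TRAJ17: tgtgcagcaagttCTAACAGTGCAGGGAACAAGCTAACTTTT
Mouse 10, TRAV3-3 with TRAJ13: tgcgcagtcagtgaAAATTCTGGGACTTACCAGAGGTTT

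In time-matched mouse 12 the TRAJ15 clonotype held 48.5% of the member counts of tumor 1 (95% Clopper-Pearson interval 48.3 to 48.6) and 55.5% of tumor 2 (55.3 to 55.6). It was also listed with 2 to 5 counts in 7 other mice. The TRAJ40 clonotype of time-matched mouse 6 held 10.9% and 12.0% of the counts of its tumors, and the TRAJ26 clonotype of time-matched mouse 14 held 24.2% and 19.7%. The same clonotype ranked first among the members in both tumors of these 3 mice, and also in time-separated mice 17, 11, 7 and 10. The intervals cover counting error only, since counts of 1 molecule may not be independent.

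In the untreated time-separated mice the leading clonotypes held unequal shares of the tumors. The TRAJ48 clonotype of mouse 4 held 4.58% in tumor 1 and 16.4% in tumor 2, and the TRAJ9 clonotype of mouse 17 held 5.45% and 10.9%. The TRAJ21 clonotype of mouse 19 had 0 of 70203 counts in tumor 1, which by 3 counts of the total allows a share of up to 0.00427%, sequences of 1 count not having been retained, and 19.3% of tumor 2. Among the DAC mice at 0.5 mg/kg, TRAJ39 led in mouse 3 (16.1% and 16.7%), TRAJ17 in mouse 11 (11.7% and 11.6%) and TRAJ32 in mouse 20 (2.97% and 24.9%). At 2 mg/kg, TRAJ26 led in mouse 7 (20.2% and 20.3%), TRAJ13 in mouse 10 (18.6% and 23.7%) and TRAJ6 in mouse 16 (17.6% and 12.1%). The clonotype of mouse 6 reached 2696 and 3788 counts in the tumors of mouse 17, and that of mouse 10 was listed in 6 other mice with 2 to 913 counts.

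The comparison with non-productive sequences asked where selection or other steps after joining left usage different from that of the stop-marked sequences. Each sequence was counted once per mouse. Over all TRAJ segments, the V-proximal zone held 32.9% ± 5.92 of productive and 34.1% ± 6.62 of non-productive sequences (difference -1.16 points, two-sided exact sign-flip test over 12 mice, p = 0.0537). The C-proximal zone held 24.3% ± 6.06 and 25.0% ± 6.19 (p = 0.209, same exact test), and the mean TRAJ number was 33.1 ± 1.96 and 32.9 ± 2.41 (p = 0.311, same exact test). The middle zone held 42.8% ± 6.30 and 40.96% ± 5.93, higher among productive sequences by 1.88 points and in 9 of 12 mice (p = 0.0391, same exact test). Adjusted over these 4 measures by Benjamini-Hochberg, none passed (exact sign-flip test, lowest adjusted p = 0.107). Over the members alone the mean TRAJ numbers were 32.9 ± 2.14 and 32.7 ± 2.60. Among single segments, 3 of 45 passed an adjusted p of 0.05 (6.67% of those tested, exact sign-flip test with Benjamini-Hochberg adjustment), 1 higher (2.22%) and 2 lower (4.44%) among productive sequences, all of them members. The V-proximal difference passed an exact p of 0.05 when mouse 11, 12 or 17 was left out (lowest p = 0.0225). Its sign turned to 3.98 points with a minimum count of 10 (p = 0.02, same exact test) and to 0.887 points with N-bearing sequences and near-copies left out (p = 0.265, same exact test). With no minimum count the V-proximal difference was -3.31 points (p = 0.000488, same exact test), and the signs of the C-proximal and the mean difference turned, to 0.504 points and -0.30.

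TRAJ7, TRAJ23 and TRAJ38 were these 3. TRAJ7 held 0 to 0.203% of the productive sequences of a mouse with a median of 0.0564%, and 0.832% to 4.80% of the non-productive ones with a median of 1.99%. TRAJ23 held 0 to 0.259% of productive sequences with a median of 0.0591%, and 0.619% to 4.09% of non-productive ones with a median of 1.16%. For both the ranges over mice did not overlap, and the productive share was lower in 12 of 12 mice (adjusted p = 0.00732 each, exact sign-flip test). TRAJ38 held 0.854% ± 0.818 of productive and 0.588% ± 0.661 of non-productive sequences, higher in 12 of 12 mice (adjusted p = 0.00732, same exact test), with ranges that overlapped widely. Over 10 settings of this comparison TRAJ38 was called in 2, and it missed the threshold with N-bearing sequences left out (adjusted p = 0.12, same exact test).

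In the other 37 members with at least 100 sequences free of N, 72.2% to 93.9% of such sequences were productive, with a median of 86.0%. TRAJ7 stood at 33 of 497 (6.64%) and TRAJ23 at 35 of 340 (10.3%), each sequence counted once per mouse.

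TRAJ7 differed from the others in where its CDR3 had been ended. After the called end, 32 bases remained in 93.8% of its sequences, against 31 in most segments, as the printed end shows. Of its 464 stop-marked sequences, 392 had a length that left a remainder of 2 on division by 3, and 0 had a length divisible by 3. With the next 1 base added, 371 of these 392 (94.6%) read through to the end without a stop codon, in 12 of 12 mice. Counted as productive, those sequences would make TRAJ7 0.844% ± 0.451 of a mouse's productive sequences (lowest 0.396%, highest 1.81%, n = 12). Stop-marked TRAJ7 sequences held 32447 counts, against 1322 for the productive ones. The stop mark of TRAJ7 thus covered 371 sequences that read in frame once 1 base was added.

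TRAJ23 showed another pattern. Of its 340 sequences, 288 (84.7%) had the codon TAG starting 18 bases before the CDR3 end, in 12 of 12 mice. All 108 of its stop-marked sequences with a length divisible by 3 held it, and 0 of the 35 productive ones did. Of those 35, 14 read TAT at this place and 7 read GAG. The productive TRAJ23 sequences were rare and small, with a median of 4 counts against 6 over all productive sequences, and 18 of the 41 tumor entries behind them were near-copies of larger sequences. The printed TRAJ23 end thus carried a stop codon of its own into the stop-marked sequences whose length kept the frame.

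**Figure D2:**
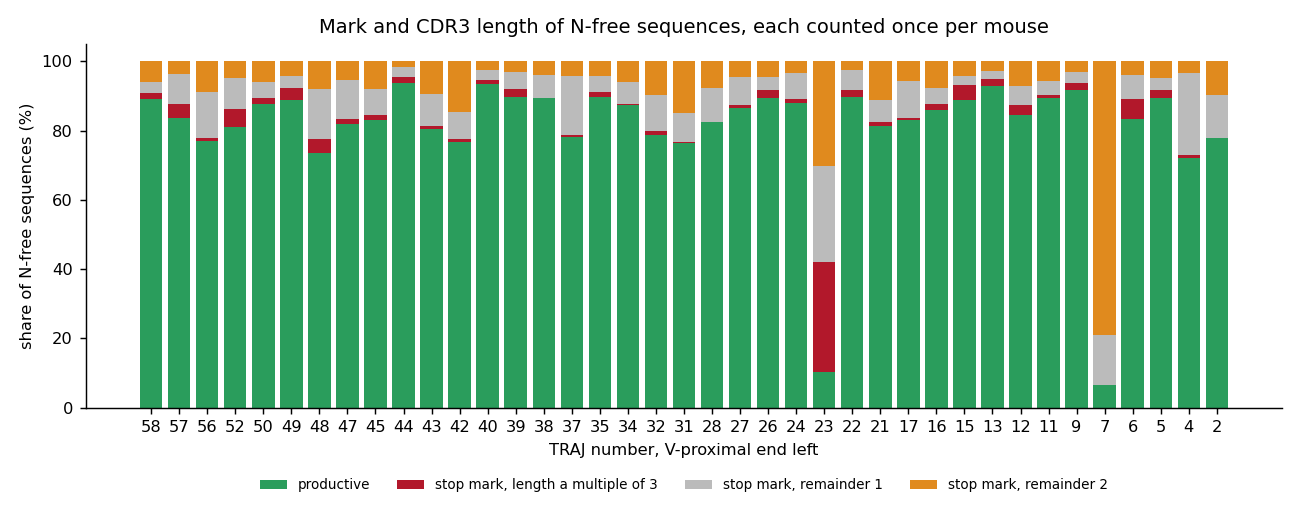
Make-up of the N-free sequences of each member with at least 100 of them, in percent, each sequence counted once per mouse, with the V-proximal end at left. Green is productive; red, grey and orange are stop-marked sequences by the remainder of the CDR3 length on division by 3, and TRAJ7 (6.64% productive) and TRAJ23 (10.3% productive) stand apart from the others.

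With N-bearing sequences and near-copies left out on both sides, a comparison chosen after seeing the data, 16 of 45 segments passed (35.6%), 14 of them among the 41 members, with 9 members higher and 5 lower among productive sequences. Over all 45 segments, 11 were higher (24.4%) and 5 lower (11.1%). With TRAJ7 and TRAJ23 left out as well, 6 members were higher and 6 lower, and over all 43 segments 7 were higher (16.3%) and 6 lower (14%). Named by the same rule of largest difference, TRAJ7 (0.106% ± 0.0722 productive, 5.63% ± 1.81 non-productive) and TRAJ23 (0.107% ± 0.105 and 4.77% ± 1.20) remained the most distant. Their non-productive shares lower those of all other segments given here, since the shares sum to the whole. TRAJ40 came next, at 5.23% ± 0.783 and 2.81% ± 1.06, higher among productive sequences in 11 of 12 mice. TRAJ26 stood at 4.19% ± 0.747 and 2.59% ± 1.16, TRAJ22 at 3.46% ± 0.693 and 2.13% ± 0.623, TRAJ49 at 5.28% ± 0.909 and 4.06% ± 0.845, TRAJ44 at 1.33% ± 0.248 and 0.177% ± 0.351, and TRAJ50 at 3.46% ± 0.397 and 2.43% ± 0.743, each higher among productive sequences in 11 or 12 of 12 mice. TRAJ32 (3.05% ± 0.647 and 4.34% ± 1.14) and TRAJ42 (2.52% ± 0.529 and 3.59% ± 1.48) were lower among productive sequences in 9 and 10 of 12 mice. Over the 10 settings, TRAJ40 and TRAJ44 were called in 7 each, TRAJ26, TRAJ22 and TRAJ49 in 4 each, TRAJ42 in 3, and TRAJ50 and TRAJ32 in 2 each. TRAJ7 and TRAJ23 were called in all 9 that held them. In the setting described, the adjusted p of these 10 lay between 0.00439 and 0.0237 (exact sign-flip test, Benjamini-Hochberg).

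TRAJ44 had a second called end. Of its 588 productive sequences, 394 closed on TTG, as printed above, and 162 (27.6%) closed on TTT with 32 bases behind, 1 base short of that. Only 38 N-free TRAJ44 sequences carried the stop mark. Whether these 162 still read in frame with the next 1 base added was not tested. Nor was the part of this second end in the low non-productive share of TRAJ44.

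The zones followed which of these segments were counted. In that comparison the C-proximal zone held 21.3% ± 2.34 of productive and 24.4% ± 3.69 of non-productive sequences (p = 0.0156, exact sign-flip test), and the mean TRAJ number was 34.2 ± 0.907 against 32.6 ± 1.37, higher in 11 of 12 mice (p = 0.00146, same exact test). Over the members alone the means were 34.3 ± 0.902 and 32.4 ± 1.25. With TRAJ7 and TRAJ23 left out as well, the C-proximal shares were 21.2% ± 2.36 and 20.97% ± 3.27 (p = 0.808) and the mean numbers 34.3 ± 0.90 and 34.7 ± 1.12 (p = 0.209), while the V-proximal zone held 36.6% ± 2.77 of productive and 39.7% ± 3.07 of non-productive sequences (p = 0.00635, all by the same exact test). The middle zone held 42.2% ± 2.20 and 39.99% ± 3.94 with TRAJ7 and TRAJ23 included (p = 0.0698) and 42.2% ± 2.21 and 39.3% ± 4.18 without them, higher in 10 of 12 mice (p = 0.0293, same exact test). Adjusted over the 4 measures, the C-proximal zone (0.0312) and the mean number (0.00586) passed with both segments included, and the V-proximal zone alone (0.0254) without them. TRAJ7 and TRAJ23 were left out together, and the part of either one was not tested.

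**Figure D3:**
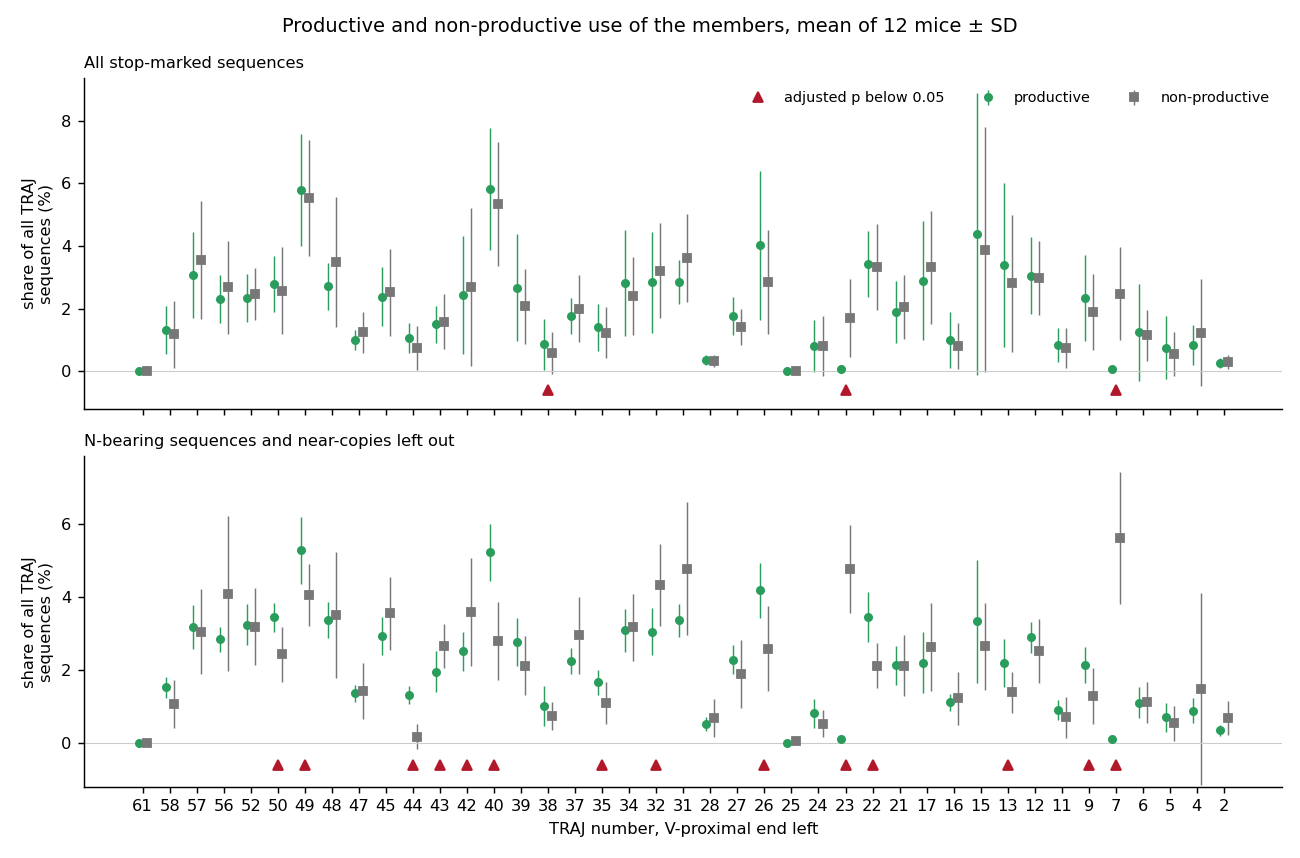
Share of each member among productive (green circles) and non-productive (grey squares) sequences of all TRAJ segments, in percent, mean of 12 mice with 1 SD, from the V-proximal end at left. The upper panel uses all stop-marked sequences and the lower one leaves out N-bearing sequences and near-copies; red triangles mark members with an adjusted p below 0.05, 3 above and 14 below.

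The TRAJ position depended on the V gene. TRAV17, TRAV18, TRAV19, TRAV20 and TRAV21 lie at the J end of the TRAV cluster and TRAV1 and TRAV2 at its far end. Joined to the J-proximal families, the mean TRAJ number of productive sequences was 47.7 ± 1.84, and joined to the J-distal families it was 26.1 ± 3.01 (all TRAJ segments, 1495 and 1034 sequences). The J-proximal mean lay between 44.01 and 51.3 in the 12 mice and the J-distal mean between 19.6 and 30.2, so the ranges did not overlap. The difference of 21.5 ± 3.03 was above 0 in 12 of 12 mice (two-sided exact sign-flip test, p = 0.000488, the smallest that 12 mice can give). Over the members alone it was 21.4 ± 3.47.

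Among member sequences, the V-proximal zone held 78.1% ± 6.98 of those with a J-proximal TRAV and 6.10% ± 5.77 of those with a J-distal one. The C-proximal zone held 2.49% ± 2.98 and 28.7% ± 12.7. By family, the mean member number was 45.0 ± 5.09 with TRAV17, 48.9 ± 2.56 with TRAV19 and 48.1 ± 1.03 with TRAV21, against 26.6 ± 4.28 with TRAV1 and 24.5 ± 4.07 with TRAV2. TRAV18 gave 1 sequence and TRAV20 gave 10. In the other families the mean lay between 29.9 and 36.8, as with TRAV7 (30.8 ± 3.26, 7962 sequences) and TRAV14 (36.3 ± 3.23, 2723 sequences), both chosen after their values were seen. Non-productive sequences without N showed a difference of 20.997 ± 5.12 in the same direction in 12 of 12 mice (p = 0.000488, same exact test), so the pairing by position was present in stop-marked sequences too. Of all N-free stop-marked sequences, 15.2% lay within 1 edit of a larger productive one, and their part in this difference was not tested.

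**Figure D4:**
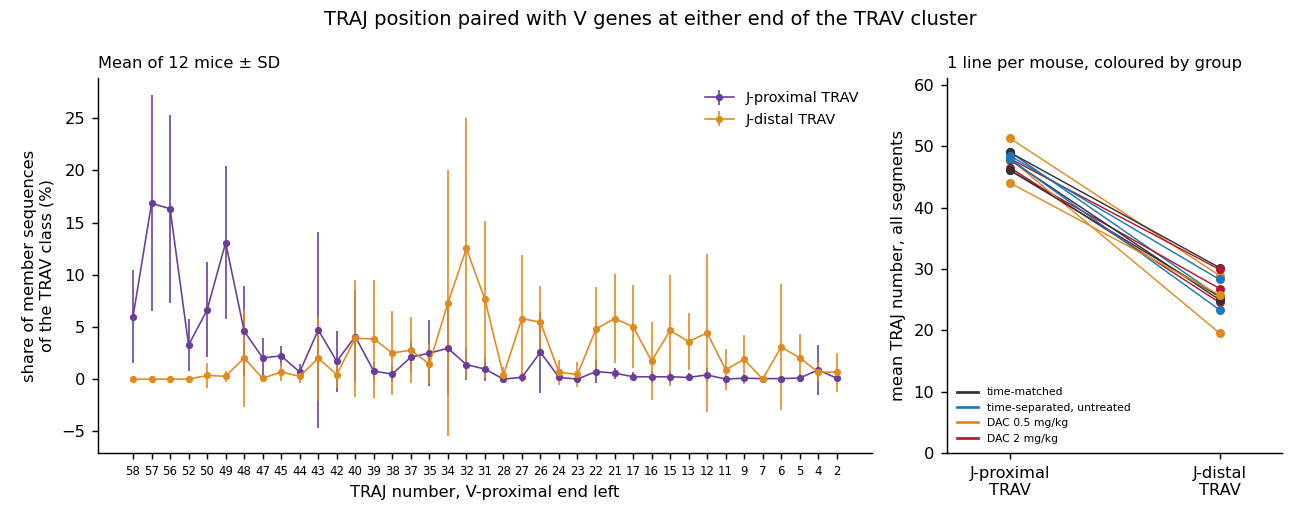
Left, share of each member other than TRAJ61 and TRAJ25 among member sequences with a J-proximal TRAV (purple) or a J-distal TRAV (orange), in percent, mean of 12 mice with 1 SD; right, mean TRAJ number over all segments for either class, 1 line per mouse in the colour of its group. All 12 lines fall, from 44.01 to 51.3 at the left ends to 19.6 to 30.2 at the right ends.

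The groups were then compared for position and for single segments. By clonotypes, the mean member number was 33.6 ± 2.82 in the time-matched mice, 34.1 ± 1.72 in the untreated time-separated mice, 31.3 ± 1.61 at 0.5 mg/kg and 32.3 ± 1.88 at 2 mg/kg DAC (n = 3 mice each). By tumor, the values ran from 30.2 to 35.6 with a median of 35.05 in the time-matched group, from 31.6 to 35.9 with a median of 34.1 in the untreated time-separated group, from 27.2 to 33.4 with a median of 31.8 at 0.5 mg/kg, and from 29.5 to 34.0 with a median of 33.01 at 2 mg/kg, so all groups overlapped. Without near-copies the group means lay closer, at 34.3 ± 0.979, 34.4 ± 0.954, 33.6 ± 0.845 and 34.7 ± 1.16. Over all TRAJ segments, the exact permutation test gave p = 0.573 for time-matched against the 9 time-separated mice and p = 0.466 over the 4 groups. For the DAC groups against the untreated time-separated mice it gave p = 0.2 at 0.5 mg/kg and p = 0.8 at 2 mg/kg, where 3 mice against 3 cannot go below an exact p of 0.1. Each DAC mouse value averages its tumors from before and after DAC, so these tests do not isolate exposure to it.

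By counts the spread between mice was wider. The mean member number was 31.2 ± 8.10 in the time-matched mice, 34.8 ± 3.18 in the untreated time-separated mice, 29.1 ± 2.37 at 0.5 mg/kg and 28.5 ± 2.82 at 2 mg/kg. The C-proximal zone held 32.2% ± 38.4 of member counts in the time-matched mice, 22.3% ± 11.7 in the untreated time-separated mice, 37.9% ± 13.4 at 0.5 mg/kg and 37.97% ± 7.96 at 2 mg/kg. Mouse 12, with its TRAJ15 clonotype, had 76.4% of its member counts in the C-proximal zone, against 7.22% in the lowest time-matched mouse. Over all TRAJ segments, exact permutation tests gave p = 0.877 for time-matched against time-separated mice and p = 0.551 over the 4 groups. Against the untreated time-separated mice, the difference was -4.90 at 0.5 mg/kg (exact permutation p = 0.1, the smallest that 3 against 3 can give) and -3.41 at 2 mg/kg (exact permutation p = 0.5). All 3 mice at 0.5 mg/kg, from 28.4 to 31.3, lay below the 3 untreated ones, from 31.7 to 37.9, and this design could not reach 0.05. Across the 12 mice the count-weighted mean TRAJ number was below the clonotype-weighted one by 1.35 on average (difference -1.35 ± 2.29, lower in 10 of 12 mice, exact sign-flip test, p = 0.0674). Without mouse 4 or mouse 6 the exact p was 0.0195 or 0.0312. The difference was -2.39 without near-copies (p = 0.0312) and -2.05 with a minimum count of 10 (p = 0.0322, same exact test).

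For single segments by clonotypes, edgeR's quasi-likelihood test called 0 of 41 (0%) in each of the 4 comparisons, with 2 or 3 at an unadjusted p under 0.05, and DESeq2 called 1 in time-matched against time-separated mice and 0 elsewhere. In clonotype data simulated for time-matched against time-separated mice, 4 of 10 segments changed 3-fold and 10 of 10 changed 10-fold were recovered, with 1 unchanged segment called in each of these runs. The other comparisons were not simulated. By counts, edgeR called 3 of 43 segments (6.98%) in time-matched against time-separated mice, of which 2 were members, and 1 (2.33%) over the 4 groups, the latter lost when mouse 4, 10, 11, 12 or 19 was left out. DESeq2 called 4 and 1 in these comparisons, and edgeR scaled by library size alone called 0 in both. The main edgeR fit called 0 of 43 at 0.5 mg/kg and 0 of 43 at 2 mg/kg against untreated time-separated mice, with 1 and 5 at an unadjusted p under 0.05, and DESeq2 called 0 in both. Both tumors of a mouse were summed in these fits, including the tumor removed before DAC. With counts, 0 of 10 simulated 3-fold changes and 6 of 10 simulated 10-fold changes were recovered in the comparison of time-matched with time-separated mice, with 0 and 1 unchanged segments called.

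TRAJ16 was called higher in the time-matched mice by counts (log2 fold change 4.72, SE 0.884, edgeR adjusted p = 0.00124), and over the 4 groups (edgeR adjusted p = 0.0165). Its share of member counts was 11.6% and 6.96% in the tumors of mouse 12 and 0.202% to 0.671% in the other 4 time-matched tumors, against 0.0829% to 1.20% in the 18 time-separated ones. Only mouse 12 stood above the rest, and without it the log2 fold change was -0.11 (edgeR adjusted p = 0.999) and 0 segments were called.

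TRAJ17 was called lower in the time-matched mice by counts (log2 fold change -3.03, SE 0.913, edgeR adjusted p = 0.0478). Its share was 0.186% to 0.922% in the 6 time-matched tumors, with a median of 0.637%. It was 0.959% to 6.63% in the untreated time-separated tumors, with a median of 2.59%, 2.33% to 16.2% at 0.5 mg/kg, with a median of 5.40%, and 1.76% to 14.9% at 2 mg/kg, with a median of 4.02%. By counts the time-matched tumors lay below all 18 others, by a narrow margin at the edge. The call did not hold in 11 of the 12 fits that left out a mouse, where the adjusted p ran from 0.0411 to 0.177, and by clonotypes the log2 fold change was -1.62 (SE 0.471, edgeR adjusted p = 0.115). The median TRAJ17 share of member clonotypes was 1.34%, 2.75%, 5.72% and 3.50% in the same order of groups. Without near-copies these medians were 1.88%, 2.85%, 3.32% and 2.31%. Time-matched tumors overlapped the untreated time-separated ones, at 1.08% to 1.55% against a lowest of 0.906%. Without near-copies they did so too, at 1.45% to 2.40% against a lowest of 0.995%.

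The members with the highest usage overlapped between groups. TRAJ49 held 4.60% to 9.70% of member clonotypes in the time-matched tumors (median 5.00%), 4.85% to 11.4% in the untreated time-separated tumors (median 7.74%), 3.55% to 9.88% at 0.5 mg/kg (median 7.48%) and 3.09% to 13.2% at 2 mg/kg (median 7.40%). TRAJ40 held 3.33% to 13.5% (median 8.20%), 5.89% to 8.55% (median 7.61%), 2.98% to 6.32% (median 5.88%) and 5.48% to 10.7% (median 6.25%) in the same order. TRAJ15 reached 20.8% in a time-matched tumor and 16.6% at 0.5 mg/kg, with a median of 2.86% and 7.70% in these groups, and ran from 0.465% to 3.14% (median 2.54%) in the untreated time-separated tumors and from 1.23% to 5.99% (median 2.88%) at 2 mg/kg. Without near-copies it held 1.72% to 9.64% in time-matched tumors (median 2.88%) and 2.60% to 6.34% at 0.5 mg/kg (median 5.24%). It then held 0.889% to 3.55% in untreated time-separated tumors (median 2.68%) and 2.55% to 4.09% at 2 mg/kg (median 3.11%).

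The tumors of a mouse were compared without an order between them. The distance was the share of usage that would have to move between segments to make the tumors alike, with 0 for equal and 1 for disjoint usage, after thinning all libraries to 26621 counts. By member counts it was 0.0697, 0.0896 and 0.175 in the time-matched mice 6, 12 and 14. It was 0.332, 0.225 and 0.494 in the untreated time-separated mice 4, 17 and 19, 0.364, 0.221 and 0.384 in the 0.5 mg/kg mice 3, 11 and 20, and 0.206, 0.263 and 0.303 in the 2 mg/kg mice 7, 10 and 16. All 3 time-matched values lay below all 9 others. Over all TRAJ segments the means were 0.0932 ± 0.0401 and 0.306 ± 0.105 (difference -0.213, two-sided exact permutation test, p = 0.00909, where 3 mice against 9 cannot go below 0.00455). Without time-matched mouse 6 or mouse 12 the exact permutation p was 0.0545, and against the 3 untreated time-separated mice alone it was 0.1, the smallest that 3 against 3 can give.

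By member clonotypes the distances were 0.0749, 0.0929 and 0.0956 in the time-matched mice and 0.114 to 0.364 in the 9 time-separated ones, again without overlap. Over all TRAJ segments the means were 0.0838 ± 0.00657 and 0.199 ± 0.091 (exact permutation test, p = 0.0545), and p fell to between 0.0303 and 0.0485 when mouse 4, 17 or 19 was left out. Among all fits that left out 1 mouse, the exact permutation p rose as high as 0.127. Between tumors of different mice the median distance over 264 pairs was 0.257 by member clonotypes and 0.571 by member counts. Before thinning, the time-matched tumors held 147589 to 536540 member counts (median 185548), against 20324 to 210584 in the time-separated ones.

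**Figure D5:**
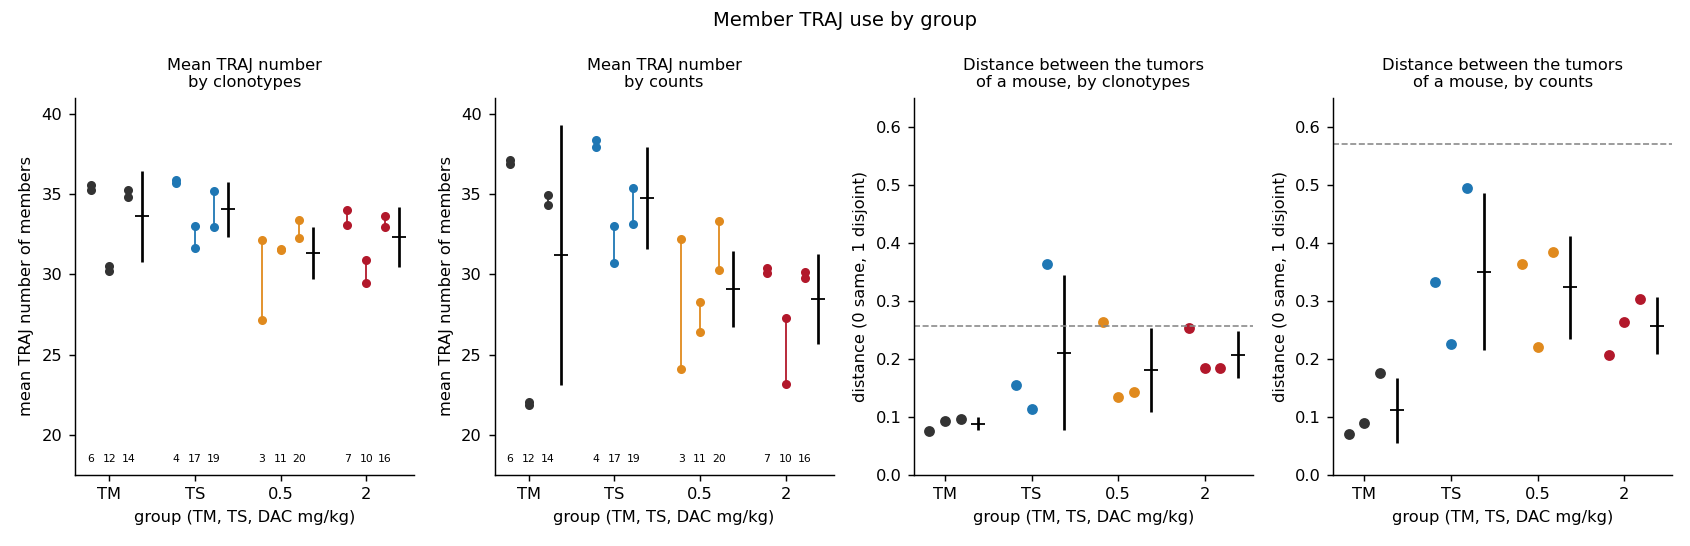
Mean TRAJ number of members per tumor by clonotypes and by counts (left pair of panels, tumors of a mouse joined by a line, mouse numbers below), and distance of member usage between the tumors of a mouse by clonotypes and by counts (right pair, 1 point per mouse). TM is time-matched, TS untreated time-separated, 0.5 and 2 the DAC doses in mg/kg; black marks are group means with 1 SD over 3 mice, dashed lines the median distance between tumors of different mice, and the 3 TM points are the lowest in both distance panels.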

How the data were processed

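Whole-tumor RNA had been made into TCRα libraries with the SMART-Seq Mouse TCR kit, which adds unique molecular identifiers, and the authors called clonotypes with the Cogent NGS Immune Profiler (version 2.0). The deposited tables give 1 read count per receptor sequence, not normalized. The methods state that an analysis based on the identifiers was also run in this software. Whether the deposited counts merge reads of 1 identifier, and the germline reference, are not given in the sources used here. TCRβ tables were not used. The stop mark in these tables covers out-of-frame sequences and sequences with an undetermined base too, and near-copies raise the number of clonotypes of abundant receptors.

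Tumors were assigned to mouse and group by the labels. Nothing was thinned except for distances (20 draws, seed 20). Position and distance were tested per mouse with exact sign-flip or permutation tests, two-sided (Python 3.11.15, scipy 1.17.1), over all TRAJ segments, and values over the members are descriptions. Segments were tested on numbers per mouse with edgeR 4.0.16 (quasi-likelihood test, TMM, filterByExpr, 1 fit over 4 groups, Benjamini-Hochberg, threshold 0.05) in R 4.3.3, with DESeq2 1.42.0 as an alternative. The edgeR test of time-matched against time-separated mice was checked on simulated data, and the other tests and comparisons were not. Replicates are mice, so p-values measure the spread between mice. Pairing by mouse came from the labels. Depth was 20324 to 536540 member counts per tumor.

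Named were the 5 most and 5 least used members, up to 10 with the largest called difference from non-productive sequences, up to 5 called per group comparison, the 5 at either end of the locus, and the largest member clonotype of each mouse. The members and lists were chosen with earlier results of these data known. The genome build of the files is not given in the sources used here, so no coordinates are printed.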

Additional observations from a re-analysis of the deposited data

Results flagged for a closer look

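Of 32 position values tested over the 6 tumors of a group, 1 held a tumor far from the others by Dixon's ratio, which flags about 1 group in 20 by chance for independent values. The 6 tumors are pairs from 3 mice, so that rate does not hold exactly here. In the group that received 0.5 mg/kg DAC, tumor 2 of mouse 3 had a mean member TRAJ number of 27.2 by clonotypes, with the nearest of the other 5 tumors at 31.5 and the highest at 33.4 (ratio 0.697). The other tumor of this mouse stood among the rest.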

How the results depend on the processing

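Of 461 alternative values of 26 results, 371 were counted as kept. For a tested value, kept means the same direction and the same side of the threshold. For a number of called segments, it means an equal or similar number, whatever the direction. The sum of squares over the 4 groups has no direction to keep. The TRAV pairing (20.9 to 21.9 when 1 mouse was left out) kept its direction and side, and all comparisons of segments by clonotypes with DAC kept their number of calls. The productive against non-productive comparison depended on which sequences counted. With a minimum count of 10 the differences were 3.98 points in the V-proximal zone, -4.83 points in the C-proximal zone and 2.23 in the mean TRAJ number. With no minimum count they were -3.31, 0.504 and -0.30. With N-bearing sequences and near-copies left out, they were 0.887, -3.11 and 1.60, and without TRAJ7 and TRAJ23 too -3.15, 0.243 and -0.47. The mean difference was 1.25 with copies of larger productive sequences removed and 0.95 with N-bearing sequences left out alone. The 3 called segments became 5 by edgeR with the mouse as a replicate block, 11 with a minimum count of 10, 10 with none, 8 with copies removed, 8 with out-of-frame sequences alone, 9 in tumor 1 alone, 9 without N-bearing sequences, 16 without N-bearing sequences and near-copies, and 13 without TRAJ7 and TRAJ23 too. The settings that leave out N-bearing sequences or near-copies were chosen after seeing the data. TRAJ7 and TRAJ23 were lower among productive sequences in all 9 settings that tested them.

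By clonotypes, the mean TRAJ number of time-matched minus time-separated mice turned from 0.81 to -0.0605 without near-copies, and that of 2 mg/kg DAC minus untreated time-separated mice from -0.55 to 0.66 without near-copies and 0.0647 with a minimum count of 10. By counts the former turned from 0.49 to -0.62 in tumor 1 alone. DESeq2 called 1 segment by clonotypes in time-matched mice. By counts, 0 segments were called in time-matched mice with library size alone and 1 in tumor 2 alone, and over the 4 groups 0 with library size alone, 2 with no filter, 0 in tumor 1 alone and 0 in tumor 2 alone. The distance difference by clonotypes was -0.133 with all counts and -0.101 with a minimum of 10, both past the threshold, and -0.111 over members, given as a description. By counts it was -0.255 against 3 untreated mice, not past it. Counts minus clonotypes came to -2.05 with a minimum of 10 and -2.39 without near-copies, both past the threshold, and to -1.97 over members, given as a description.

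Leaving out 1 mouse gave -1.41 to -0.96 points for the V-proximal difference, -0.0512 to 2.04 and -2.05 to 3.69 for the mean number in time-matched mice by clonotypes and by counts, -1.40 to 1.04 at 2 mg/kg by clonotypes, 0 to 1 called by clonotypes and 0 to 3 by counts in time-matched mice, 0 to 3 by counts over 4 groups, 0 to 1 at 2 mg/kg by counts, -0.127 to -0.0904 and -0.236 to -0.185 for the distances, and -1.68 to -0.97 for counts minus clonotypes. TRAJ16 ran from -0.11 (without mouse 12) to 5.30. The cause was not tested. No paired analysis was possible between the groups because no mouse belongs to more than 1 of them. The rarest members, TRAJ25 and TRAJ61, rest on 1 and 3 sequences, and the part of depth in this was not tested.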
